A study of Homo sapiens with 19 samples.

Results

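The interferon regulatory factors examined here were 8 genes, IRF1, IRF2, IRF3, IRF4, IRF5, IRF7, IRF8 and IRF9, of 20007 protein-coding genes annotated in GENCODE release 44. They were taken by name, and peaks of 12 lists were read within 10 kb either side of each transcription start site (TSS), with a further 100 kb either side for IRF8. The cells were MOLM-13, a human acute myeloid leukaemia line with a KMT2A (MLL) rearrangement, profiled by CUT&RUN, in which an antibody directs a nuclease to cut out the chromatin that carries a histone mark. One group received Corin at 0.1 µM for 24 h, an inhibitor of the CoREST complex that acts on its demethylase LSD1 and on its deacetylases, and the other received the vehicle DMSO, with 2 libraries per treatment for each of H3K27ac, H3K4me2 and H3K4me3. The series holds 19 samples, of which the other 7 (Corin with all-trans retinoic acid, LSD1 and IgG) were not analysed here.

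Interferon regulatory factors share a DNA-binding domain that reads GAAA repeats, the core of the interferon-stimulated response element (ISRE). IRF3, IRF5 and IRF7 are activated by kinases downstream of nucleic acid and microbial sensors, IRF9 is the DNA-binding subunit of the complex that forms after type I interferon receptor signalling, IRF1 is an interferon-induced activator and IRF2 its antagonist. IRF4 and IRF8 bind composite sites with ETS factors such as PU.1 (the product of SPI1), and IRF8 directs monocyte and dendritic cell development. H3K27ac lies at active promoters and enhancers, H3K4me2 at promoters and enhancers, where LSD1 can remove it, and H3K4me3 mostly at promoters.

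All values below are bp under deposited peaks in a window, so they measure whether and how widely a mark was called, not its height. The read depth of the libraries is unknown from these lists. The Corin lists were longer than the DMSO lists in all 3 marks: 20.1 to 26.1 Mb against 11.1 to 12.6 Mb for H3K27ac, 42.2 to 47.4 Mb against 33.4 to 36.6 Mb for H3K4me2 and 15193917 to 15649284 bp against 14223595 to 14964970 bp for H3K4me3. A wider mark at 1 gene therefore has to be read against the whole list, and several differences are also given scaled to each list's covered length. Values of bins and single regions are as called. A larger share of cells with a mark and a stronger mark in each cell cannot be told apart. Of the 7 myeloid leukaemia markers, SPI1, ELANE, HOXA9 and MEIS1 had an H3K4me3 peak over the TSS in every library, LYZ in 3 of 4 and CD33 in 1, while MPO had none. The 9 B cell, T cell and erythroid markers had none in any library.

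In windows of 10 kb either side of the TSS, IRF5 had the widest H3K27ac and IRF4 had none. For H3K27ac, 7 of 8 members had a higher Corin mean, and in 6 both Corin libraries lay above both DMSO libraries. None was called by limma, a linear model with a spread shared across genes, at a Benjamini-Hochberg adjusted p under 0.05 over all genes tested: 0 of 6 members in the fit for H3K27ac, 0 of 8 for H3K4me2 and 0 of 6 for H3K4me3, with 3, 1 and 3 at an unadjusted p under 0.05. The same test called 0.0% of 9623 genes for H3K27ac, 0.144% of 13926 for H3K4me2 (all higher) and 0.0% of 11113 for H3K4me3, where 2508, 1999 and 788 genes had an unadjusted p under 0.05. Groups did not overlap, with Corin higher, in 6 members for H3K27ac against 60.4% of all genes, in 6 for H3K4me2 against 40.5% and in 3 for H3K4me3 against 26.5%; none was lower, against 0.655%, 4.0% and 8.6%. IRF8 in H3K27ac and IRF9 in H3K4me3 had no peak with DMSO and entered the fit through their Corin libraries alone, so that they had to separate. Without them the counts are 5 and 2 members with groups that do not overlap, and 2 and 2 at an unadjusted p under 0.05.

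The median difference over the members in the fit was 721.25 bp for H3K27ac, 475.0 bp for H3K4me2 and 360.25 bp for H3K4me3, beside 501.5, 238.5 and 62.5 bp over all genes tested. The H3K27ac median includes IRF8 and the H3K4me3 median IRF9, so both describe the members that passed and no more. Relative to the length of each list some directions turned. With coverage scaled to covered length, the Corin mean was lower for 7 of 8 members in H3K4me2 (all but IRF4) and for IRF2 and IRF3 in H3K27ac, with the other 4 of 6 still higher. In H3K4me3 IRF2 turned lower, IRF3 was lower already (-64.0 bp as called, -205.1 bp scaled) and the other 4 of 6 stayed higher. Both Corin libraries then lay above both DMSO libraries in 2 members for H3K27ac, 0 for H3K4me2 and 3 for H3K4me3, against 18.2%, 9.89% and 14.5% of all genes, and below in 2, 2 and 1, against 27.7%, 47.2% and 20.4%; IRF8 in H3K27ac and IRF9 in H3K4me3, at 0 bp with DMSO, are above under any scaling. The same scaling took the median of the members to 28.5 bp for H3K27ac, -280.9 bp for H3K4me2 and 299.9 bp for H3K4me3, and that of all genes to -74.04 bp for H3K27ac, -303.15 bp for H3K4me2 and -21.94 bp for H3K4me3. With 2 libraries against 2 there are 6 arrangements, too few for an exact permutation test to pass 0.05, and nothing in the labels says that the libraries came from separate cultures, so the limma p-values measure only the spread between these libraries, which may be technical.

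**Figure D1:**
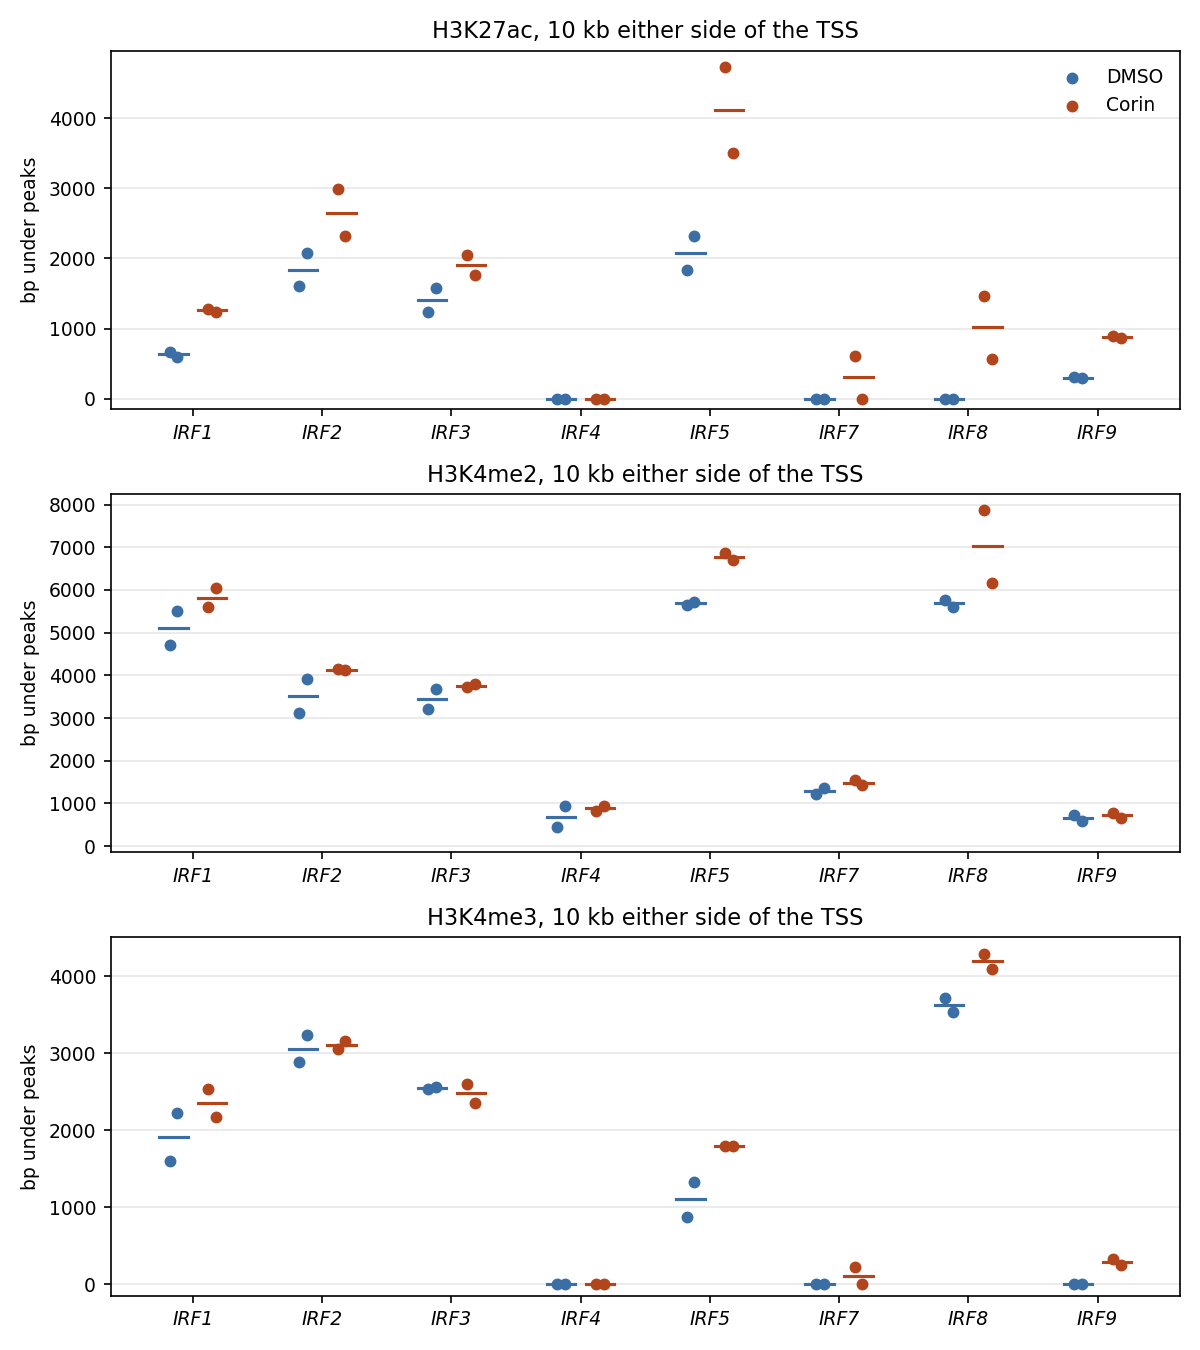
Bp under peaks (linear axis) within 10 kb either side of the TSS of the 8 genes, one panel per mark; each point is 1 library and each bar the mean of 2. IRF5 reaches 4726 bp of H3K27ac in a Corin library, IRF4 has H3K4me2 only, and IRF8 has the most H3K4me3 in all 4 libraries.

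Windows are of equal length, so levels can be set side by side. In H3K4me3 the order was IRF8 (3535 to 4290 bp over the 4 libraries), IRF2 (2878 to 3236 bp) and IRF3 (2354 to 2603 bp), whose ranges did not overlap. IRF1 (1603 to 2530 bp) overlapped with IRF3 and with IRF5 (878 to 1793 bp). IRF9 reached 327 bp, IRF7 reached 222 bp and IRF4 had none. The order differed in H3K4me2, where the ranges of IRF5 (5653 to 6863 bp), IRF8 (5599 to 7878 bp) and IRF1 (4705 to 6042 bp) overlapped and all lay above IRF2, IRF3, IRF7, IRF4 and IRF9, whose highest value was 4152 bp.

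IRF8 lies on the plus strand of chromosome 16 (hg38, 85899116 to 85922606), and its TSS carried H3K4me2 and H3K4me3 peaks in all 4 libraries and an H3K27ac peak in none. The H3K4me3 region at the promoter ran from 1099 bp upstream to 3270 bp downstream and held 4290 and 4093 bp in the Corin libraries and 3713 and 3535 bp in the DMSO libraries. The groups did not overlap, and the difference of 567.5 bp had an adjusted p of 0.627 in limma and was 347.1 bp when scaled. The H3K4me2 region, 7701 bp wide and the widest of that mark within 100 kb, held 7684 and 6161 bp with Corin against 5774 and 5599 bp with DMSO. In the whole 10 kb window H3K4me2 was higher by 1333.0 bp ± 634 (SE, adjusted p = 0.425 in limma), by 474.5 bp without Corin replicate 1 and 2191.5 bp without Corin replicate 2, and differed by -267.9 bp once scaled. H3K27ac in this window was 1462 and 569 bp with Corin and 0 bp in both DMSO libraries, whose nearest H3K27ac peaks lay 23112 and 20083 bp from the TSS. The Corin peaks had deposited scores at or above 24.9% to 45.0% of the peaks in their lists. With the same number of top-scoring peaks in each list, or at a score of at least 100, too few libraries kept a peak for IRF8 to stay in this fit.

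Over 100 kb either side of the IRF8 TSS, H3K27ac covered 31370 and 29033 bp in the Corin libraries and 12618 and 15223 bp in the DMSO libraries. The means were 30201.5 ± 1650 and 13920.5 ± 1840 bp (SD, n = 2), 2.17-fold apart, and the rise of 16281.0 bp ± 3970 (SE) had an adjusted p of 0.00496 in limma. H3K4me2 covered 23521 and 22162 bp with Corin and 15414 and 16130 bp with DMSO, a rise of 7069.5 bp ± 1720 (SE), 1.45-fold, with an adjusted p of 0.000737 in limma. H3K4me3 covered 8581 and 7764 bp against 6641 and 6801 bp, higher by 1451.5 bp with groups that did not overlap (adjusted p = 0.342 in limma). The test called 41.6% of 15345 genes higher for H3K27ac, 20.5% of 17547 for H3K4me2 and 0.0% of 15362 for H3K4me3, so a call alone did not set IRF8 apart; lower calls were 0.0%, 0.0228% and 0.0%. Groups did not overlap, with Corin higher, for IRF8 in all 3 marks, against 79.4%, 61.5% and 33.6% of genes (lower in 0.384%, 1.07% and 6.56%). By the size of the rise IRF8 was number 39 of 15345 genes for H3K27ac (top 0.254%), 204 of 17547 for H3K4me2 (top 1.16%) and 633 of 15362 for H3K4me3 (top 4.12%), windows of neighbouring genes overlapping. A rank in bp favours windows with wide coverage. The H3K27ac mean over all genes tested was 2700 bp with DMSO and 5240 bp with Corin. On a log2(bp + 200) scale the IRF8 rise was 1.11 for H3K27ac and 0.53 for H3K4me2, beside medians of 0.89 and 0.25 over all genes tested.

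Scaled to covered length, the IRF8 difference stayed positive but was 2561.6 bp for H3K27ac (adjusted p = 0.699 in limma, rank 535, top 3.49%) and 2390.6 bp for H3K4me2 (adjusted p = 0.183, rank 582, top 3.32%). For H3K4me3 the scaled rank was 453 (top 2.95%), a higher place than as called. The scaled medians over all genes tested were 3.51 bp for H3K27ac, -349.36 bp for H3K4me2 and -13.83 bp for H3K4me3. The calls also ended with the same number of top-scoring peaks in each list, where the rise was 11522.5 bp for H3K27ac (adjusted p = 0.0931) and 4304.0 bp for H3K4me2 (0.123). With no filter on genes the rises were the same in bp and the adjusted p was 0.101 and 0.162. The H3K27ac call ended without DMSO replicate 1 (14978.5 bp, adjusted p = 0.159) or DMSO replicate 2 (17583.5 bp, 0.0627), and the H3K4me2 call without Corin replicate 1 (6390.0 bp, 0.151), with rises near those of all 4 libraries. Over all settings the adjusted p ran from 5.66e-06 to 0.699 and from 0.000737 to 0.183.

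**Figure D2:**
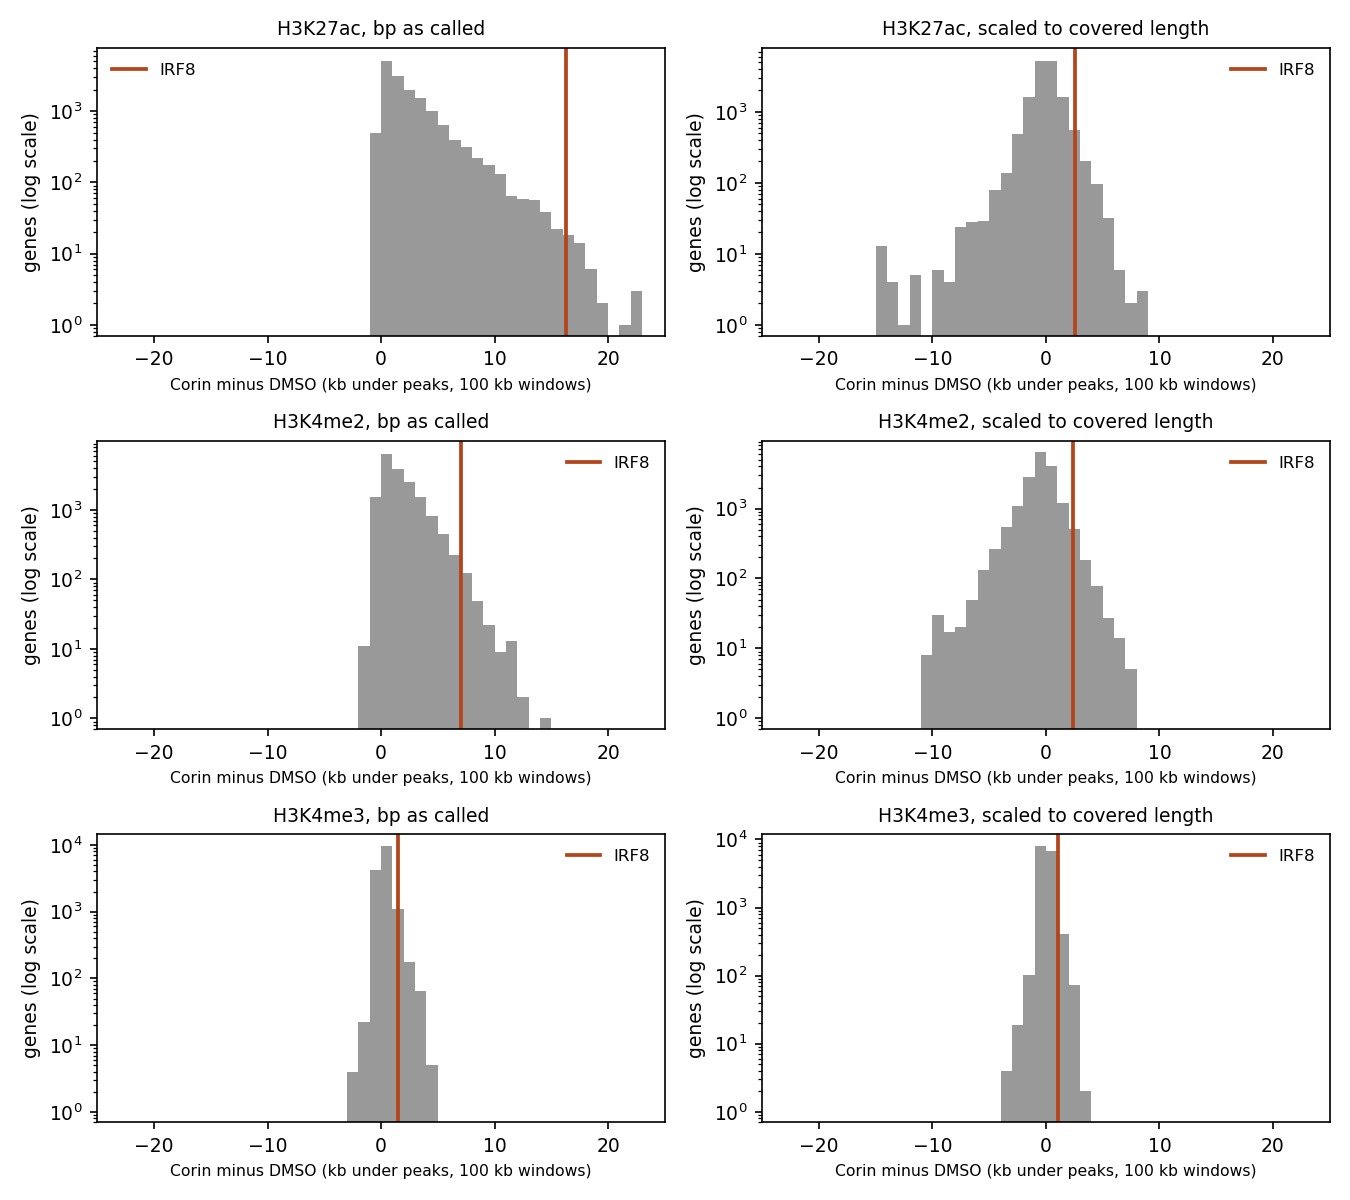
Histograms of Corin minus DMSO bp under peaks within 100 kb of the TSS of all genes tested (kb on the x axis, number of genes on a log y axis, bins of 1 kb), as called on the left and scaled to covered length on the right; the line marks IRF8. IRF8 lies far in the right tail as called for H3K27ac (16281.0 bp) and nearer the bulk after scaling (2561.6 bp).

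Most H3K27ac around IRF8 lay downstream of the TSS, 85.6% to 91.1% of the covered bp in the 4 libraries. Cut into bins of 20 kb, the bin from 20 to 40 kb downstream, which holds the 3′ end of the gene and the start of a long non-coding gene (ENSG00000285163), had the most in every library: 11920 and 10953 bp with Corin and 4497 and 5039 bp with DMSO. The next bin, 40 to 60 kb downstream, held 5792 and 5277 bp against 2293 and 2378 bp. The bin from 60 to 40 kb upstream held 1728 and 2823 bp against 435 and 266 bp. The bin from 80 to 100 kb downstream had high values in both groups, 4787 and 5821 bp against 4029 and 4289 bp. The first 20 kb downstream held 2799 and 1370 bp with Corin and none with DMSO. The bin from 60 to 80 kb downstream overlapped between groups, with 2690 and 1419 bp against 670 and 1965 bp, and no bin was lower.

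**Figure D3:**
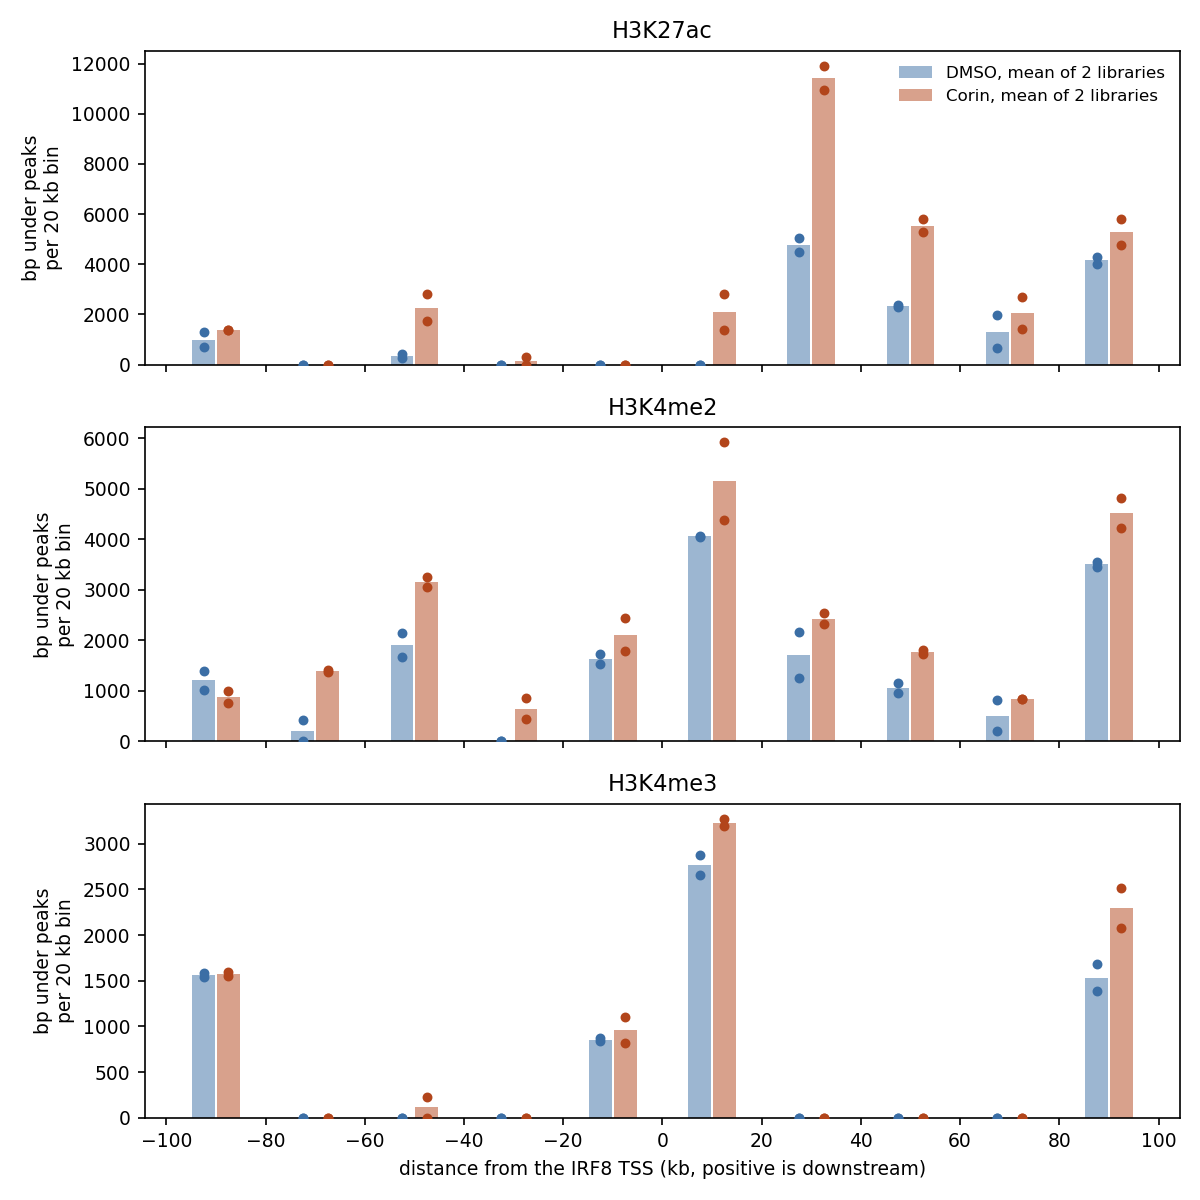
Bp under peaks per 20 kb bin (y axis) against distance from the IRF8 TSS (x axis, kb), by mark; bars are means of 2 libraries and points single libraries. For H3K27ac the tallest Corin bar, 11436.5 bp, stands 20 to 40 kb downstream, and for H3K4me2 the bin 100 to 80 kb upstream is the one bin in which Corin is lower.

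Merging the 4 lists of a mark gave 30 H3K27ac regions reaching into the IRF8 window. Of these 10 were present in all 4 libraries, and in 8 of the 10 both Corin libraries covered more bp than both DMSO libraries. As called, these shared regions made up 10505.5 bp of the difference, 5 regions found in both Corin and neither DMSO library (gained) 3249.0 bp, and 15 with other patterns 2414.0 bp. Scaled to covered length, the shared regions differed by -1574.8 bp, with 3 of the 10 higher and 4 lower in both Corin libraries, the gained regions by 2490.6 bp and the others by 1263.3 bp. A gained region has 0 bp in both DMSO libraries by definition, so its difference is positive under any scaling. The widest shared region, 5679 bp at chr16:85927317-85932995 in intron 1 of ENSG00000285163, held 4787 and 4899 bp with Corin against 2915 and 2997 bp with DMSO. Another, 4104 bp at chr16:85922753-85926856 just past the 3′ end of IRF8, differed more, with 3369 and 3013 bp against 785 and 298 bp. The second widest, 4289 bp at chr16:85981192-85985480 over exons of 2 long non-coding genes 82030 bp from the TSS, did not separate the groups, with 3908 and 4163 bp against 3529 and 4289 bp. A region centred about 45 kb upstream (chr16:85853074-85854991, over an exon of ENSG00000289932) held 1536 and 1842 bp against 435 and 266 bp.

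After the promoter, the widest H3K4me2 and H3K4me3 regions overlapped in part with the H3K27ac regions above. The H3K4me2 region chr16:85981752-85986347, 4596 bp wide over exons of the same 2 long non-coding genes, held 4222 and 4418 bp with Corin against 3452 and 3552 bp with DMSO, and the H3K4me3 region chr16:85982811-85985320 within it held 2510 and 2072 bp against 1386 and 1678 bp. Upstream, the H3K4me2 region chr16:85853426-85855354, 1929 bp over an exon of ENSG00000289932, held 1929 and 1632 bp against 1417 and 1460 bp. In these 3 regions the groups did not overlap as called. The last H3K4me3 region of the 3 widest, chr16:85798311-85800760 over exons of EMC8 and COX4I1 at the window's edge, held 2402 and 2111 bp against 2235 and 2121 bp, overlapping.

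Gained regions were 5 of 30 (16.7%) for H3K27ac, against 11.5% of 41587 regions in the genome, 3 of 18 (16.7%) for H3K4me2, against 9.64% of 42429, and 0 of 4 for H3K4me3, against 1.49% of 12090. No region near IRF8 was lost in any mark, where 0.18%, 0.158% and 0.289% of regions were lost in the genome. The H3K27ac count was 13 without Corin replicate 1 and 13 without Corin replicate 2, since 1 library then has to show the region, and 2 with matched peak numbers. For H3K4me2 it was 6 without Corin replicate 1, 5 without DMSO replicate 2, and 1 with matched peak numbers or with a score of at least 100.

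The gained H3K27ac region nearest the promoter, chr16:85902096-85903075, began 2934 bp downstream in intron 1 and reached exon 2. It held 980 and 569 bp of H3K27ac with Corin, lay wholly under H3K4me2 in all 4 libraries, and carried H3K4me3 at its edge in both Corin libraries (257 and 337 bp) and in neither DMSO library. Its H3K27ac peaks had scores of 87 and 85, and the region was absent with matched peak numbers or at a score of at least 100. The other 4 gained H3K27ac regions had no H3K4me2 and no H3K4me3 peak in any library. They lay within IRF8 at 13972 bp (505 and 569 bp with Corin) and 21281 bp (881 and 838 bp) from the TSS, and in introns of ENSG00000285163 at 37708 bp (653 and 588 bp) and 47579 bp (296 and 619 bp). The 3 gained H3K4me2 regions were at -60812 bp from the TSS (458 and 502 bp with Corin, no H3K27ac in any library), -25624 bp (435 and 847 bp, H3K27ac in Corin replicate 1 alone, 289 bp) and 25331 bp (224 and 197 bp, H3K27ac in 3 of 4 libraries).

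The sequences of 3 gained H3K27ac regions are shown because they come from regions near IRF8 with peaks in both Corin libraries and in neither DMSO library. The first is part of the region next to the promoter, left of exon 2. The second is the centre of the region with the most H3K27ac in the less covered Corin library (intron 8), and the last is part of the region 37708 bp downstream, where the peak of Corin replicate 1 spans the whole stretch and that of Corin replicate 2 ends at the first capital. All are on the plus strand of hg38, and capitals mark a motif match.
chr16:85902435-85902688: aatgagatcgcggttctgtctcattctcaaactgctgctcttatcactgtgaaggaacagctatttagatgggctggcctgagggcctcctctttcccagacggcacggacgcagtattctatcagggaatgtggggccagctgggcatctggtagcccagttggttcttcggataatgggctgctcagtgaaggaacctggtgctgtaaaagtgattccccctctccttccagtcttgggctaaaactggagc
chr16:85920739-85921038: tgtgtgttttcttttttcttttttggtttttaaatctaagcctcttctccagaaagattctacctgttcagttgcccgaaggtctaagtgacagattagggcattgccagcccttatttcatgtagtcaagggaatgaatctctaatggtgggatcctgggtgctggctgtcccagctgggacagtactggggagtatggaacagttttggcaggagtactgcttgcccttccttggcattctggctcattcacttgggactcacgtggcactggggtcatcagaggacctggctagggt
chr16:85937312-85937611: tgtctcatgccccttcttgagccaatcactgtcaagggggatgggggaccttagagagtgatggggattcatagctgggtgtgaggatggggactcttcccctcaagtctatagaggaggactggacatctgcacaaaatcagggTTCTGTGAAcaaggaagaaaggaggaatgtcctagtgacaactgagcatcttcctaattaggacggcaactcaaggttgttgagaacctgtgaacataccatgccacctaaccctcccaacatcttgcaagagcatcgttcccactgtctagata

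Both strands were searched for an ISRE (GAAA, any 2 bases, GAAA), an interferon-gamma activated site (GAS, TTCNNNGAA) and an ETS-IRF composite (GGAA, any 2 bases, GAAA, which can overlap an ISRE by its GAAA). Of the 5 gained H3K27ac regions, 2 held a match somewhere, a GAS at 22091 bp and at 38295 bp downstream. None of the 5 had one in its central 300 bp. Among the 300 bp centres of all 41585 H3K27ac regions, 3.87% held the ISRE, 8.08% the GAS and 3.58% the composite. No share was computed for whole regions, so the 2 regions with a match have none to be set beside. Matches describe the letters and not a bound site.

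**Figure D4:**
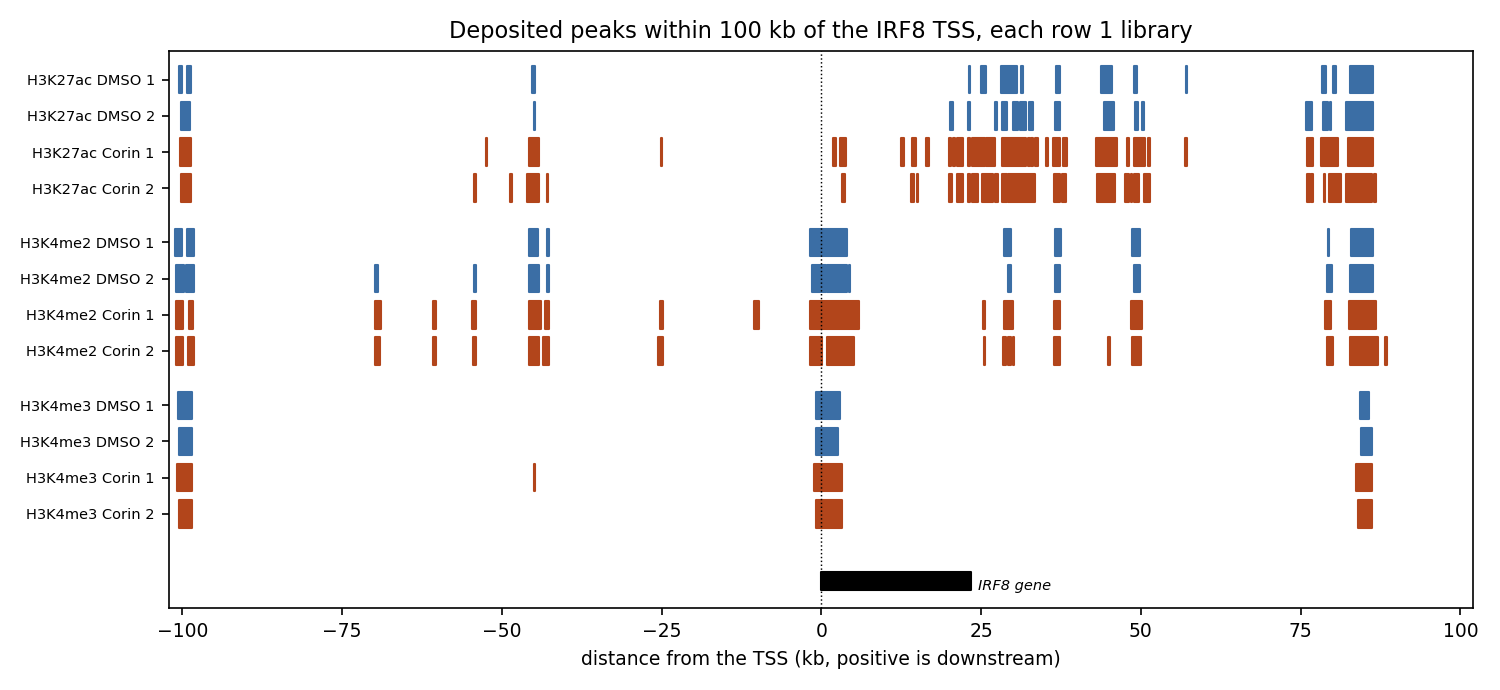
Deposited peaks within 100 kb of the IRF8 TSS, each row 1 library and each block a peak, with distance from the TSS in kb (positive is downstream) and the IRF8 gene as a black bar. H3K27ac has 30 and 29 peaks in the Corin rows and 14 and 17 in the DMSO rows, none over the TSS, while H3K4me2 and H3K4me3 cover the TSS in all rows.

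At the far upstream edge of the IRF8 window lie the starts of EMC8 and COX4I1, 99618 and 99467 bp away, which encode a membrane complex subunit and a cytochrome c oxidase subunit. There H3K4me2 was lower with Corin, with 754 and 984 bp against 1010 and 1396 bp in the bin from 100 to 80 kb upstream. The promoter H3K4me3 in that bin hardly moved, with 1551 and 1599 bp against 1542 and 1588 bp. The rise of H3K4me2 over the IRF8 window thus came from the other 9 bins, each of which had both Corin libraries above both DMSO libraries.

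IRF4, the lymphoid member that also pairs with PU.1, had no H3K27ac and no H3K4me3 within 10 kb of its TSS (chromosome 6, 391752) in any library. It did carry 1 H3K4me2 region over the TSS in all 4 libraries, with 817 and 948 bp with Corin and 445 and 927 bp with DMSO. The groups overlapped, DMSO replicate 1 being the low library, and the difference of 196.5 bp became -44.5 bp without it and 21.2 bp when scaled.

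IRF5, which drives inflammatory cytokine genes in macrophages, had the widest H3K27ac of the 8 in every library. Its window (TSS at chromosome 7, 128937927) held 4726 and 3497 bp with Corin and 1837 and 2321 bp with DMSO, means of 4111.5 ± 869 and 2079.0 ± 342 bp (SD, n = 2). The groups did not overlap, and the difference of 2032.5 bp ± 613 (SE), 1.98-fold, had an unadjusted p of 0.0159 and an adjusted p of 0.139 in limma, the lowest adjusted p of the 6 members in that fit. Scaled to covered length it was 36.4 bp (adjusted p = 0.986), and with matched peak numbers 1320.0 bp (0.418). Without Corin replicate 2 it was 2647.0 bp with an adjusted p of 0.00418, in a fit with 1 Corin library that called 18.1% of 8700 genes, and over the runs that left out 1 library the adjusted p reached 0.493. None of this H3K27ac touched the canonical TSS: the shared region, chr7:128939201-128941930, lay 1274 to 4003 bp downstream in intron 1, with 2612 and 2706 bp against 1837 and 2321 bp.

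Upstream of IRF5 a region at chr7:128934439-128935464 was gained, with 1005 and 475 bp of H3K27ac in the Corin libraries and none with DMSO. H3K4me2 lay there in all 4 libraries (1216 and 1037 bp with Corin, 909 and 763 bp with DMSO). A further upstream peak, 1109 bp wide, was found in Corin replicate 1 alone. The H3K4me2 peak over the IRF5 TSS, 4126 to 4752 bp wide, had a score at or above 99.6% to 99.9% of the peaks in its list. H3K4me2 in the window was 6863 and 6706 bp against 5653 and 5727 bp (difference 1094.5 bp ± 378 SE, adjusted p = 0.278 in limma), which became -435.0 bp when scaled. H3K4me3 was 1793 and 1790 bp against 878 and 1328 bp, higher by 688.5 bp ± 177 (SE, adjusted p = 0.555 in limma), a difference in the top 2.26% of all genes tested. With matched peak numbers it was 449.0 bp (adjusted p = 0.856), and at a score of at least 100 also 449.0 bp (0.881).

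RefSeq promoter sequence (GRCh38.p14, 250 bases before to 50 after a start) was at hand for 5 of the 8 genes, in 9 entries, and 3 of the entries held a match to a motif. They are shown because they are the member promoters with such a match, each beside or under a region whose H3K27ac was wider in both Corin libraries. Capitals mark the match, a GAS in IRF1 and IRF9 and an ETS-IRF composite on the reverse strand in an IRF5 start within intron 1. The IRF5 stretch lies 2543 to 2722 bp downstream of the canonical TSS, under the shared H3K27ac region, and the IRF9 stretch is kept to 30 bases.
IRF1, chr5:132490794-132490973, minus strand: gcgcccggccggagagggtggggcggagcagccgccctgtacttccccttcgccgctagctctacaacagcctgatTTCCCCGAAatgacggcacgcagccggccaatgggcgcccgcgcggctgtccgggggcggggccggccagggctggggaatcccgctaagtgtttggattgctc
IRF5, chr7:128940470-128940649, plus strand: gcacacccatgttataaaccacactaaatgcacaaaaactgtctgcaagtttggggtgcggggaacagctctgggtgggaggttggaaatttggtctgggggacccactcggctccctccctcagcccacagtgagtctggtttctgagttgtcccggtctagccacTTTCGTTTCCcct
IRF9, chr14:24161192-24161221, plus strand: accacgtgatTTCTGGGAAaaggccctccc
Among all 35116 promoter entries, 3.57% held the ISRE, 7.66% the GAS and 2.82% the composite.

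IRF1, the interferon-induced activator (TSS at chromosome 5, 132490773), had 1275 and 1242 bp of H3K27ac with Corin and 671 and 598 bp with DMSO, 1.98-fold. The groups did not overlap, and the difference of 624.0 bp ± 287 (SE) had an adjusted p of 0.221 in limma, and was 20.7 bp (0.99) scaled to covered length. Most of it came from a region about 5 kb upstream, chr5:132495323-132496481, present in all 4 libraries (1084 and 886 bp against 671 and 598 bp). A region at the TSS was gained: chr5:132490569-132490924, from 151 bp upstream to 204 bp downstream, held 191 and 356 bp with Corin and none with DMSO. The peak of Corin replicate 1 had a score of 97. With matched peak numbers or at a score of at least 100 the region was found in Corin replicate 2 alone. The GAS match 124 bp upstream lies in this region, under the peak of Corin replicate 2 and outside that of Corin replicate 1, which began 4 bp past the TSS. H3K4me2 and H3K4me3 covered the TSS in all 4 libraries. H3K4me2 was 5590 and 6042 bp against 4705 and 5498 bp (adjusted p = 0.551 in limma), and H3K4me3, at 2530 and 2167 bp against 1603 and 2227 bp, overlapped between groups.

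IRF2, the antagonist of IRF1 (TSS at chromosome 4, 184474550), had peaks on both sides of its TSS and a gap over it. H3K27ac and H3K4me2 peaks stopped short of the TSS in all 4 libraries, by 28 to 303 bp and by 69 to 357 bp, and H3K4me3 peaks covered it in 2 libraries. H3K27ac was 2995 and 2315 bp with Corin and 1601 and 2072 bp with DMSO, with groups that did not overlap. The difference of 818.5 bp had an adjusted p of 0.29 in limma, was 478.5 bp without Corin replicate 1, and became -696.4 bp when scaled. It lay mainly on the gene side of the TSS (1671 and 1452 bp against 765 and 965 bp), while on the side of the divergent transcript IRF2-DT the region next to the TSS had 1324 and 863 bp against 836 and 887 bp, and DMSO replicate 2 had a further 220 bp. H3K4me3 was 3050 and 3152 bp against 2878 and 3236 bp, overlapping.

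IRF9, which recognises the ISRE for the interferon-induced complex (TSS at chromosome 14, 24161265), had 896 and 865 bp of H3K27ac with Corin and 305 and 295 bp with DMSO, 2.94-fold. The replicates of each group lay close together, the groups did not overlap, and the difference of 580.5 bp had an adjusted p of 0.175 in limma. Part of it was a gained region over an exon of the neighbouring RNF31, chr14:24159742-24160092 (351 and 226 bp against none). A peak that began 2 bp past the TSS was also wider, 545 and 404 bp against 305 and 295 bp, and a region of 235 bp about 6 kb downstream was found in Corin replicate 2 alone. With matched peak numbers the difference was 49.5 bp (adjusted p = 0.969), and scaled to covered length it was 229.6 bp (adjusted p = 0.698). H3K4me3 at IRF9 was gained: chr14:24161302-24161628 held 327 and 247 bp with Corin and none with DMSO, 1 of 180 such H3K4me3 regions in the genome. The adjusted p of the window was 0.674 in limma. These H3K4me3 peaks had scores at or above 11.2% and 8.01% of the peaks in their lists. At a score of at least 100 IRF9 left the H3K4me3 fit. H3K4me2 was 775 and 665 bp against 721 and 583 bp, overlapping. A readthrough gene, ENSG00000259529, shares these exons, so the marks cannot be given to IRF9 alone.

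**Figure D5:**
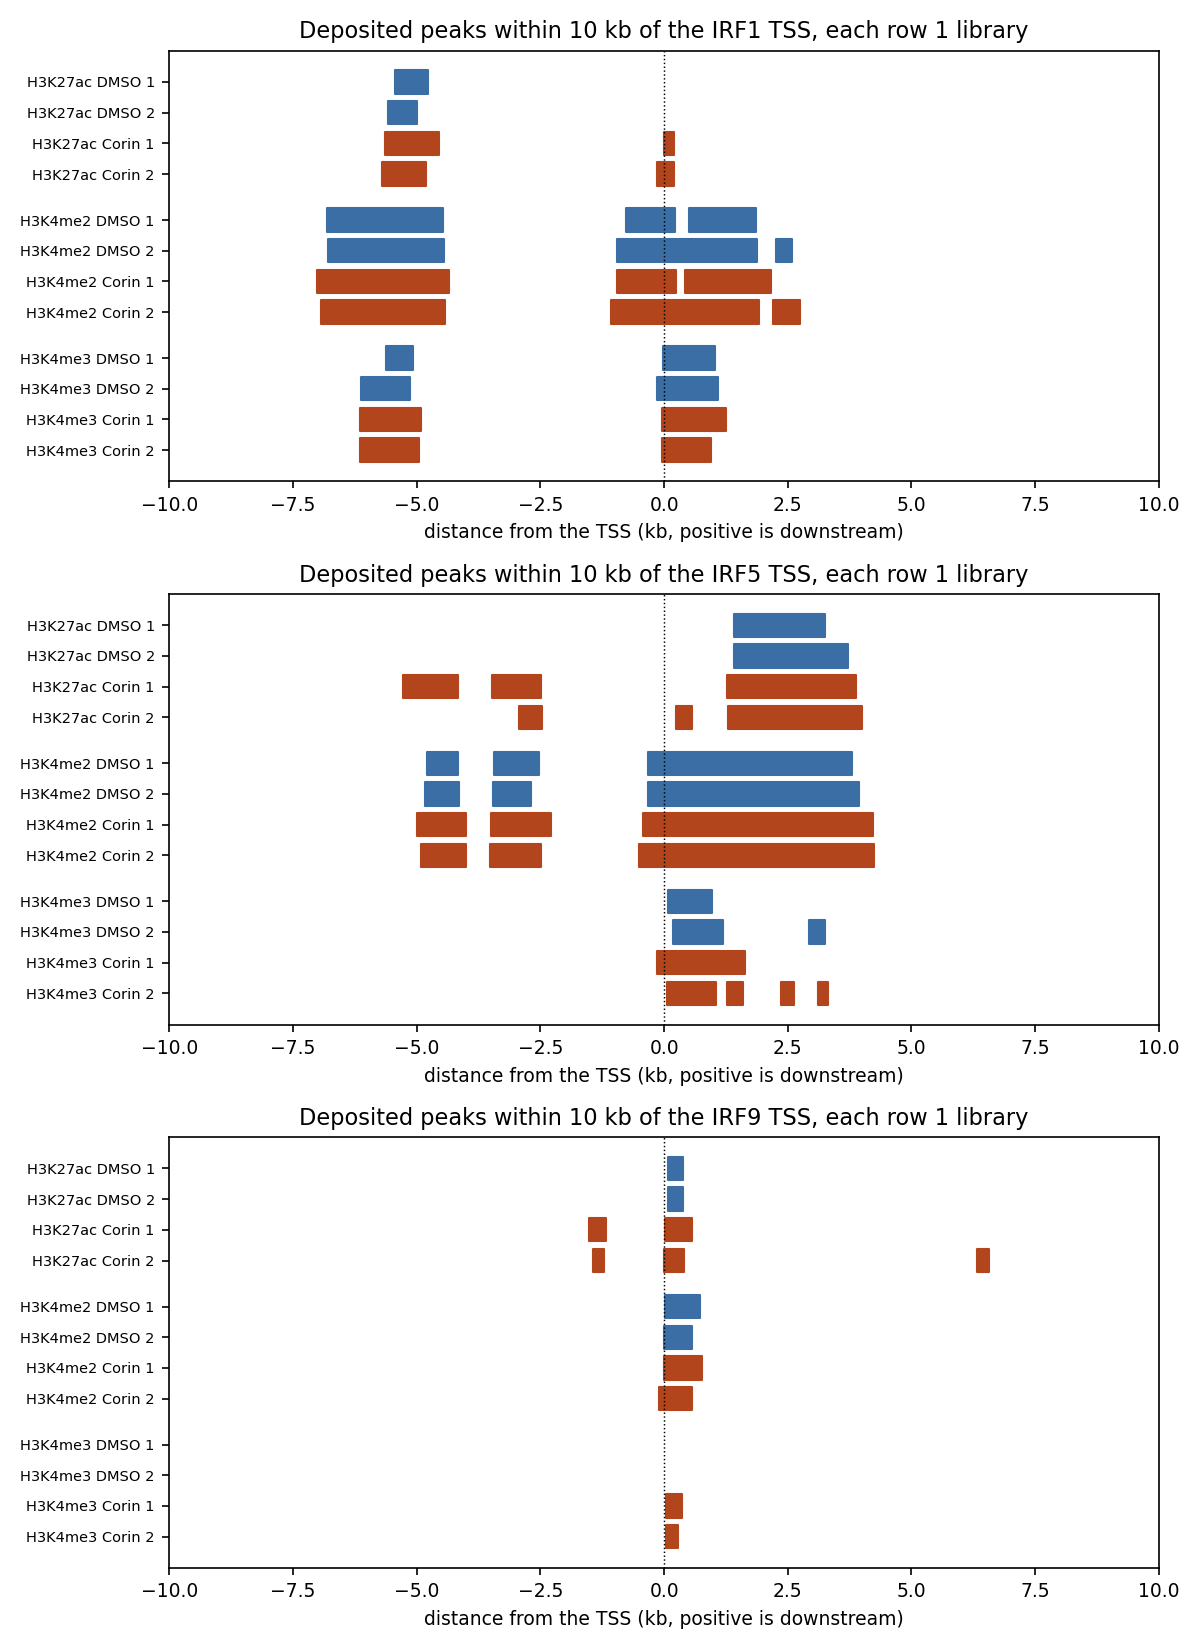
Deposited peaks within 10 kb of the TSS of IRF1, IRF5 and IRF9, each row 1 library, with distance from the TSS in kb (positive is downstream). Corin rows of H3K27ac have a block at the IRF1 TSS, a block about 3 kb upstream of IRF5 and a block about 1 kb upstream of IRF9 that DMSO rows lack, and H3K4me3 at IRF9 appears in the Corin rows only.

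IRF3, which is held inactive in the cytoplasm until a sensor is triggered (TSS at chromosome 19, 49665857), had 2047 and 1766 bp of H3K27ac with Corin and 1229 and 1583 bp with DMSO. The groups did not overlap, but the difference of 500.5 bp (adjusted p = 0.401 in limma) became -618.5 bp when scaled, -241.5 bp with matched peak numbers and -44.5 bp at a score of at least 100. H3K4me3 was 2603 and 2354 bp against 2528 and 2557 bp, and H3K4me2 3718 and 3805 bp against 3200 and 3670 bp. The start of BCL2L12 lies 76 bp away, so the 2 promoters share these peaks.

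IRF7, which amplifies the type I interferon response and is itself induced by it (TSS at chromosome 11, 615950), had H3K27ac (610 bp) and H3K4me3 (222 bp) in Corin replicate 1 alone and none in the other 3 libraries of either mark. With a peak in 1 of 4 libraries it entered neither fit. H3K4me2 covered the TSS in all 4 libraries, with 1540 and 1421 bp against 1225 and 1353 bp. The groups did not overlap, and the difference of 191.5 bp (adjusted p = 0.759 in limma) became -148.3 bp when scaled.

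A list of 22 genes that act with these factors was read in the same windows: kinases and adaptors, interferon receptors and their kinases, DNA-binding partners and corepressors. No gene of the list was called by limma in any mark, with 4 of 19 at an unadjusted p under 0.05 for H3K27ac, 7 of 22 for H3K4me2 and 3 of 21 for H3K4me3. Both Corin libraries lay above both DMSO libraries in 12, 14 and 5 genes, against 60.4%, 40.5% and 26.5% of all genes, and below in 0, 0 and 5, against 0.655%, 4.0% and 8.6%. The median difference was 960.0 bp for H3K27ac, 628.25 bp for H3K4me2 and 116.5 bp for H3K4me3, beside 501.5, 238.5 and 62.5 bp over all genes tested. Scaled to covered length, the medians were -68.2, -101.0 and 16.7 bp, beside -74.04, -303.15 and -21.94 bp over all genes, and the Corin mean was lower in 10 of 19, 13 of 22 and 9 of 21 genes.

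STING1, the adaptor that leads from cytosolic DNA to IRF3, had the largest difference of the list as called in both H3K27ac and H3K4me2. Its H3K4me2 covered 7333 and 6498 bp with Corin and 3304 and 3942 bp with DMSO (difference 3292.5 bp ± 460 SE, unadjusted p = 0.000452, adjusted p = 0.0788 in limma), and the difference was 2039.1 bp when scaled (0.113). Its H3K27ac covered 8679 and 8368 bp against 4126 and 5878 bp (3521.5 bp, adjusted p = 0.137), which became -804.7 bp when scaled. IFNGR1, a chain of the interferon-gamma receptor, was next in H3K4me2, with 5376 and 6548 bp against 4219 and 4113 bp (1796.0 bp, and 599.9 bp when scaled). SPI1, whose product PU.1 is the partner of IRF8, had the largest H3K4me3 difference, 4132 and 4295 bp against 2841 and 3081 bp (1252.5 bp ± 184 SE, adjusted p = 0.37), followed by TICAM1, an adaptor of Toll-like receptors, at 1468 and 1305 bp against 530 and 812 bp.

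The IRF2BP family holds corepressors first named for binding IRF2. IRF2BP2 had the next largest H3K27ac difference of the list as called, 11421 and 8756 bp against 7315 and 6928 bp (2967.0 bp), which became -2964.9 bp when scaled. It also had the most negative H3K4me3 difference, -523.5 bp (-873.3 bp scaled), with 5979 and 5780 bp with Corin against 6640 and 6166 bp with DMSO, and the most negative in H3K4me2, -343.5 bp (-3028.9 bp scaled), where the groups overlapped as called. IRF2BP1 differed by 179.5 bp in H3K4me3 (80.2 bp scaled), overlapping, and by 690.0 bp in H3K4me2 (4.4 bp scaled), with 3359 and 2858 bp against 2410 and 2427 bp. IRF2BPL, of the same family, followed in H3K4me3, with 1080 and 1111 bp against 1357 and 1834 bp (-500.0 bp, adjusted p = 0.674 in limma). JAK1, a kinase of interferon receptors, differed by -12.0 bp in H3K4me2 (-421.8 bp scaled) and had no H3K27ac in any library.

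The genes whose coverage over the 12 libraries followed IRF8 most closely in the 10 kb windows were TENT5A, MARCHF9, BICRA, CDK4 and MBLAC1, with Pearson r of 0.988, 0.987, 0.986, 0.985 and 0.984. They were taken from 69 genes whose mean in each mark lay within 1.5 times that of IRF8. The 12 points share 3 marks whose levels differ widely, so choosing genes with like means in each mark by itself favours a high r. Correlations within a mark were not computed.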

How the data were processed

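CUT&RUN peak lists of 12 MOLM-13 libraries were used, 1 list per library. The submitters' processing notes name Trim Galore, Bowtie2, Picard, MACS2 and the build GRCh38/hg38; the control and the calling threshold are not given in the sources used here. The deposited lists give peak starts and ends, and each peak has a score deposited by the authors, a whole number of at least 50 whose definition is not stated, and it served only for ranking and filtering inside each list. Lists held 11104 to 41152 peaks. Reads were not used, so depth and counting error are unknown, and longer lists cannot be told apart from deeper libraries.

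For 20007 protein-coding genes, bp under peaks within 10 kb (IRF8 also 100 kb) of the Ensembl canonical TSS of GENCODE release 44 was summed per library. The recorded 5′ end of IRF1 lies 17946 bp from its canonical TSS and served as an alternative, in which IRF1 left the fit in all 3 marks. limma 3.58.1 (R 4.3.3; lmFit, eBayes with trend) compared Corin with DMSO within each mark over 4 libraries, for genes with a peak in at least 2, with Benjamini-Hochberg adjustment at 0.05; the procedure was tested on simulated data. Regions were merged lists, with a library present at 1 bp of overlap. Windows and regions were computed with Python 3.11.15 and pandas 2.3.3. Named were all members, the related genes with the 2 largest rises and falls per mark, the 5 genes most like IRF8, all gained and lost regions near IRF8 and other members and the 3 widest near IRF8 per mark. Some genes of the related list and a sequence are not reported here. The members and gene lists were chosen with earlier results of these data known. Alternatives were another filter, a log2(bp + 200) scale, a replicate block, leaving out each library, matched peak numbers, a score of at least 100, other windows, 50% overlap and, chosen after seeing the data, scaling to covered length and the gene's 5′ end.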

Additional observations from a re-analysis of the deposited data

How the results depend on the processing

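Of 270 values for single members under the alternatives, 250 kept their direction and side of the threshold, 17 reversed and 3 passed the threshold that they had missed. Settings in which a member left the fit are not counted. Among these were IRF8 in H3K27ac without either Corin replicate, with matched peak numbers and at a score of at least 100. IRF9 in H3K4me3 also left without either Corin replicate and at that score. The settings with no filter and with the replicate block keep the bp difference of the main fit, so they could not reverse it. Scaling to covered length reversed H3K4me2 at IRF1 (-594.6 bp), IRF2 (-293.9), IRF3 (-545.8), IRF5 (-435.0), IRF7 (-148.3), IRF8 (-267.9) and IRF9 (-107.3), H3K27ac at IRF2 (-696.4) and IRF3 (-618.5), and H3K4me3 at IRF2 (-121.8); IRF3 H3K27ac also reversed with matched peak numbers (-241.5) and at a score of at least 100 (-44.5). Leaving out 1 library reversed H3K4me2 at IRF4 (-44.5 to 437.5 bp) and IRF9 (-1.0 to 137.0) and H3K4me3 at IRF2 (-135.0 to 223.0; -7.0 without Corin replicate 2) and IRF3 (-188.5 to 60.5). The cause was not tested.

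Same-numbered Corin and DMSO libraries deviated together over genes (r of 0.31, 0.318 and 0.238 for H3K27ac, H3K4me2 and H3K4me3), but no label gives the meaning of a number and each mark has 2 pairs, so the numbers were not taken to pair libraries. With the replicate block, 2 members were called for H3K27ac (IRF5, adjusted p = 0.0474, and IRF8, 0.0161, which passed the filter through its Corin libraries alone) and 0 in the other marks, and over all genes 1370 (14.2%), 499 (3.58%) and 0 were called for H3K27ac, H3K4me2 and H3K4me3. The block left the 100 kb H3K27ac call of IRF8 (adjusted p = 0.0236) and ended the H3K4me2 call (7069.5 bp, adjusted p = 0.0546).

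The number of H3K27ac members called was 0 to 1 with 1 library left out, in runs that called 0.0% to 18.1% of all genes (18.1% without Corin replicate 2, the run that called IRF5). Members with groups that do not overlap numbered 3 with matched peak numbers (H3K27ac, against 44.1% of all genes tested), 2 when scaled (H3K4me2, both lower, against 57.1% in either direction), and 1 at a score of at least 100 (H3K4me3, against 34.6%). With 1 library left out they numbered 6 to 7, 7 and 4 to 6 of all 8 members (H3K4me3: 6 without Corin replicate 2, 5 without DMSO replicate 2). Of members that passed the filter in those runs, 5 to 6, 7 and 3 to 5 did not overlap, all higher but for 1 lower in H3K4me3 without Corin replicate 1 and 1 without DMSO replicate 1, against 76.3% to 83.9%, 68.7% to 76.3% and 64.6% to 69.9% of genes that passed, in either direction. Around IRF8, the H3K27ac rise was 16281.0 bp with no filter, 11522.5 bp with matched peak numbers, 2561.6 bp scaled and 14978.5 to 17583.5 bp with 1 library left out; the H3K4me2 rise was 7069.5, 4304.0, 2390.6 and 6390.0 to 7749.0 bp, and the H3K4me3 difference 1043.0 to 1860.0 bp with 1 library left out. Gained H3K27ac regions there numbered 2 with matched peak numbers, 9 when 50% of a region had to be covered and 5 to 13 with 1 library left out; gained H3K4me2 regions 1 with matched peak numbers, 1 at a score of at least 100, 5 at 50% and 3 to 6; gained H3K4me3 regions 0 to 1. With matched peak numbers 1 H3K4me2 region was lost. Over all genes in 100 kb windows, 6384 H3K27ac calls (higher) became 0 when scaled and 11 with matched peak numbers, and 3601 H3K4me2 calls became 485 and 564, with 127 and 18 lower in place of 4.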
